A study of Mus musculus with 24 samples.

Results

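Glycogen metabolism was examined in brown adipose tissue (BAT) through 8 genes, which were chosen by their role in making or breaking down glycogen and matched by Ensembl identifier among the 12615 genes of the count table. The choice was made with earlier results of these data known. All 8 were found and all 8 passed the filter on low counts, as did 12485 genes in all. The synthesis genes were Ugp2, Gyg, Gys1, Gys2 and Gbe1, the breakdown genes were Pygl and Pygb, and the regulator was Ppp1r3c.

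Glycogen is the branched glucose polymer in which cells keep a quickly available store of carbohydrate. Ugp2 makes the activated glucose (UDP-glucose), glycogenin (Gyg) starts the chain, the glycogen synthases lengthen it and the branching enzyme Gbe1 adds branch points. Glycogen phosphorylase releases glucose 1-phosphate from the chain ends, and Ppp1r3c (protein targeting to glycogen) brings protein phosphatase 1 to the particle, where it favours synthesis over breakdown. Synthase and phosphorylase come as tissue isozymes, with Gys1 known as the muscle form, Gys2 as the liver form, Pygl as the liver form and Pygb as the brain form. Brown adipocytes hold glycogen and take up large amounts of glucose when they produce heat.

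BAT RNA of 24 mice was sequenced as 3′ tags, so that a count does not grow with transcript length and levels of different genes may be set side by side as CPM (counts scaled to the normalised library size). All mice carried floxed alleles of both corepressor genes, Tbl1xr1 (TBLR1) and Tbl1x (TBL1), and all were given tamoxifen. Mice labelled BATdKO also carried the Ucp1CreERT2 transgene, a tamoxifen-inducible Cre recombinase whose Ucp1 promoter is active in thermogenic adipocytes, so that other cells of the depot keep both genes, whereas Cre- mice lacked it. There were 6 mice in each of 4 groups, which were Cre- and BATdKO mice housed for 4 days at 30°C, near thermoneutrality, and Cre- and BATdKO mice housed for 6 days at 8°C after a stepwise lowering of the temperature. Tamoxifen was given at 5 weeks of age by the study's methods, where the labels give years, and housing began 3 weeks after the last injection. The labels and the study's text differ on the days in the cold and on sex, and the groups used here rest on genotype and temperature only. By the labels every 8°C mouse was also housed longer than every 30°C mouse. Cold below names temperature and days of housing together, as they cannot be told apart. Library numbers of the 30°C and 8°C mice form separate runs, and no batch is labelled. Any difference that goes with these numbers cannot be told apart from cold either.

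Total counts ranged from 2738613 to 11527643, except in the Cre- 30°C mouse m4, whose library held 699703. The brown adipocyte markers were present, with at least 9 of 10 above 0 in every library and Dio2 at 0 in 1 library. All 12 of 12 hepatocyte markers were also counted in every library, at a summed 32689 to 47754 CPM against 501 to 3853 CPM for the brown adipocyte markers, and Alb exceeded Ucp1 in 24 of 24 libraries by 5.13- to 302-fold. Counts of Xist and of the Y-linked Ddx3y were found together in 24 of 24 libraries. Skeletal muscle markers (12 of 14 in the table) summed to between 0.978 and 8432 CPM and 7 of 8 macrophage markers to between 171 and 262 CPM.

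The deleted genes did not fall in mice labelled BATdKO. At 8°C both were higher there and passed (edgeR, adjusted p under 0.1 over all tested genes). The log2 fold changes ± SE were 0.92 ± 0.17 for Tbl1xr1 (adjusted p = 0.00348) and 0.39 ± 0.10 for Tbl1x (adjusted p = 0.0633). At 30°C they were 0.44 ± 0.17 (adjusted p = 0.36) and 0.35 ± 0.11 (adjusted p = 0.205) and did not pass. Why the 2 genes were higher was not tested. Their summed CPM was 56.8 to 65.9 in Cre- and 80.4 to 108 in BATdKO libraries at 8°C. At 30°C it was 55.9 to 67.0 in 5 Cre- and 83.2 to 99.5 in 5 BATdKO libraries. Both mice m6 at 30°C went against their groups, with 92.1 CPM in the Cre- mouse and 56.6 CPM in the BATdKO mouse. The deleted exons are not given in the sources used here and a 3′ tag may lie outside them, so these counts do not check the deletion. Genotypes below are those of the labels, and values are given with and without both mice m6 at 30°C where they bear on a result.

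**Figure D1:**
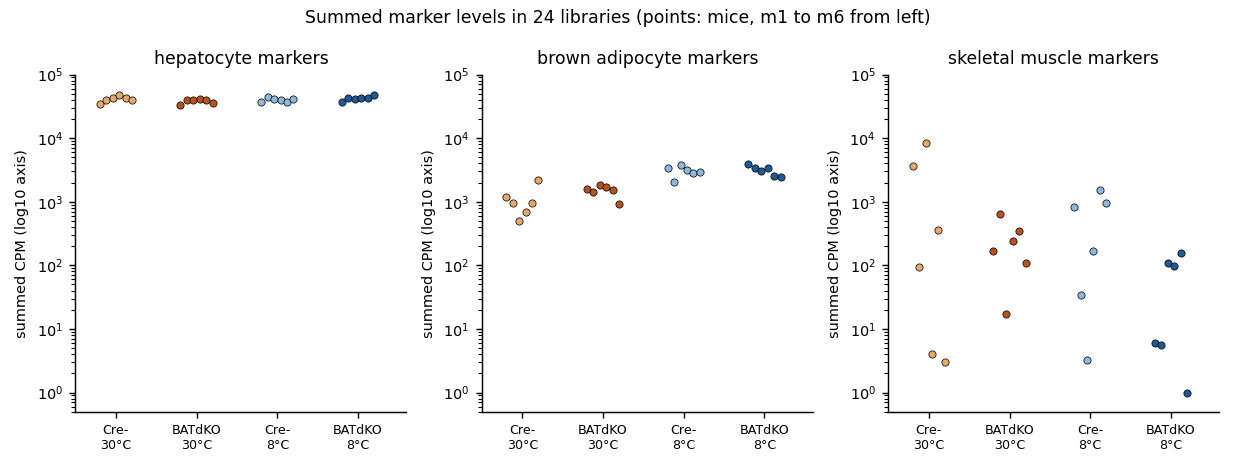
Summed CPM of hepatocyte, brown adipocyte and skeletal muscle markers (vertical axis, log10) in each of the 24 mice by group. Hepatocyte markers lie between 32689 and 47754 CPM in all groups, brown adipocyte markers lie between 501 and 2175 CPM at 30°C and between 2070 and 3853 CPM at 8°C, and muscle markers spread from 0.978 to 8432 CPM.

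Pygl was the highest of the 8 genes, with a median over the 24 libraries of 365 CPM, followed by Gbe1 with 106 CPM and Ugp2 with 72.8 CPM. Ppp1r3c and Gys1 had medians of 40.6 and 39.3 CPM, and their ranges overlapped. Gys2, Gyg and Pygb had medians of 23.1, 20.1 and 11.5 CPM. The liver-type phosphorylase was thus counted far above the brain type, while the muscle-type synthase was counted above the liver type by a smaller margin. Transcripts of Gys2, Pygl, Ugp2 and Ppp1r3c are also abundant in liver, and the part of the hepatocyte transcripts in these levels was not tested.

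**Figure D2:**
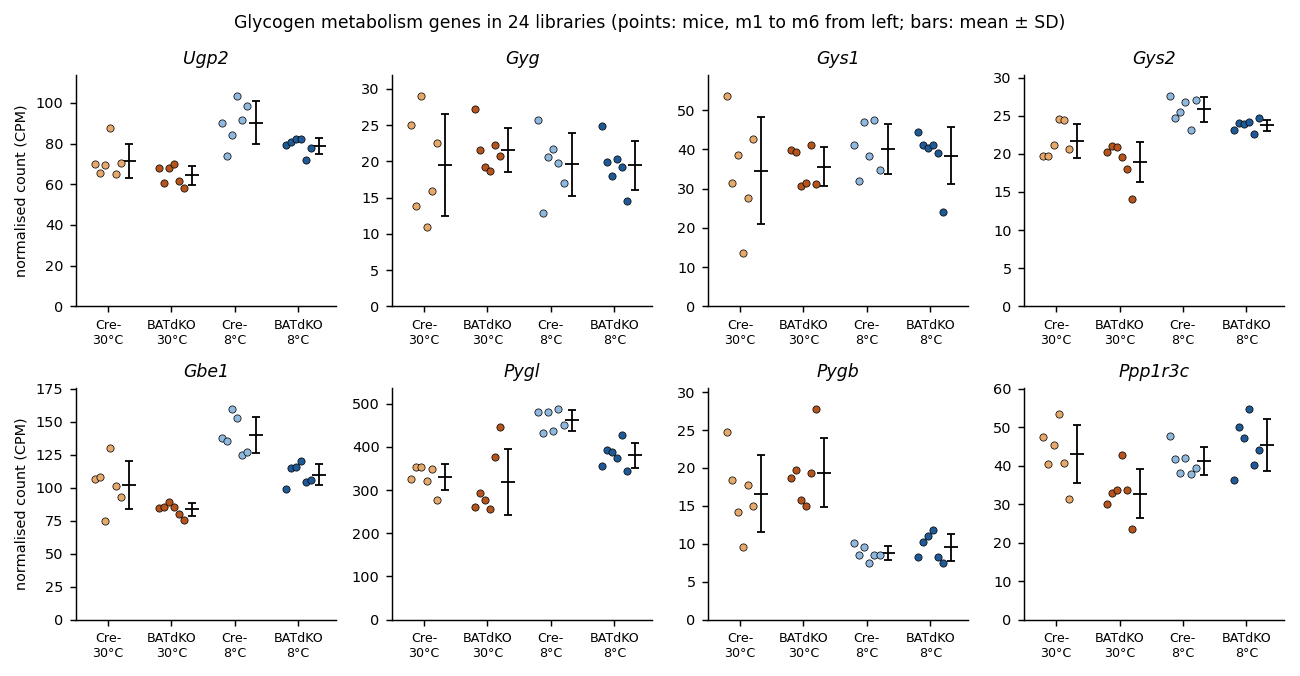
Normalised counts (CPM, vertical axis from 0) of the 8 genes in each mouse, by group, with mean ± SD beside the points (n = 6 mice). Pygb has a lower mean and Gbe1, Ugp2 and Gys2 have higher means at 8°C in both genotypes, with ranges that overlap in Cre- mice, while Gyg and Gys1 overlap in all groups.

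Cold in Cre- mice moved 5 of the 8 genes. Ugp2, Gys2, Gbe1 and Pygl rose and Pygb fell, whereas Gyg, Gys1 and Ppp1r3c did not pass the test (edgeR, adjusted p under 0.1 over all tested genes). Over all tested genes 5.57% rose and 3.59% fell, against 4 and 1 of the 8. As the 8 genes were chosen with earlier results of these data known, these shares are no test of the set. Among 20 other glycogen genes, 0 rose and 0 fell past the threshold in this comparison. The median log2 fold change of the 8 genes was 0.20, beside -0.02 for all tested genes. In bulk tissue a change in the number of cells of a type and a change in RNA per cell cannot be told apart, and the summed brown adipocyte markers themselves moved from 501–2175 CPM at 30°C to 2070–3764 CPM at 8°C in these mice. Without the 30°C mouse m6, which held the 2175 CPM, the warm range was 501 to 1183 CPM and did not overlap the cold one. Ucp1 made up the largest part of this shift, with means of 177 CPM at 30°C and 1539 CPM at 8°C. The means of the other listed markers were also higher at 8°C, with 403 and 485 CPM for Cidea.

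Cold in BATdKO mice also moved 5 of the 8 genes. Ugp2, Gys2, Gbe1 and Ppp1r3c rose and Pygb fell, with Pygl, Gyg and Gys1 not past the test. Over all tested genes 3.76% rose and 3.31% fell, which again is no test of genes chosen with earlier results known. Among the 20 other glycogen genes, 1 rose and 0 fell past the threshold. The median log2 fold change was 0.28 for the 8 genes and -0.0026 for all tested genes. Without both mice m6 at 30°C the calls in Cre- mice were the same. Those in BATdKO mice were kept, and Pygl passed as well (0.37, adjusted p = 0.00885). The summed brown adipocyte markers were 930 to 1845 CPM at 30°C and 2471 to 3853 CPM at 8°C in BATdKO mice, and the warm range was 1399 to 1845 CPM without the mouse m6. Ucp1 again made up the largest part, with means of 290 CPM at 30°C and 1685 CPM at 8°C. Mean Cidea was lower at 8°C (620 and 374 CPM), as was mean Adrb3 (35.4 and 24.7 CPM). The means of the other listed markers were higher at 8°C.

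**Figure D3:**
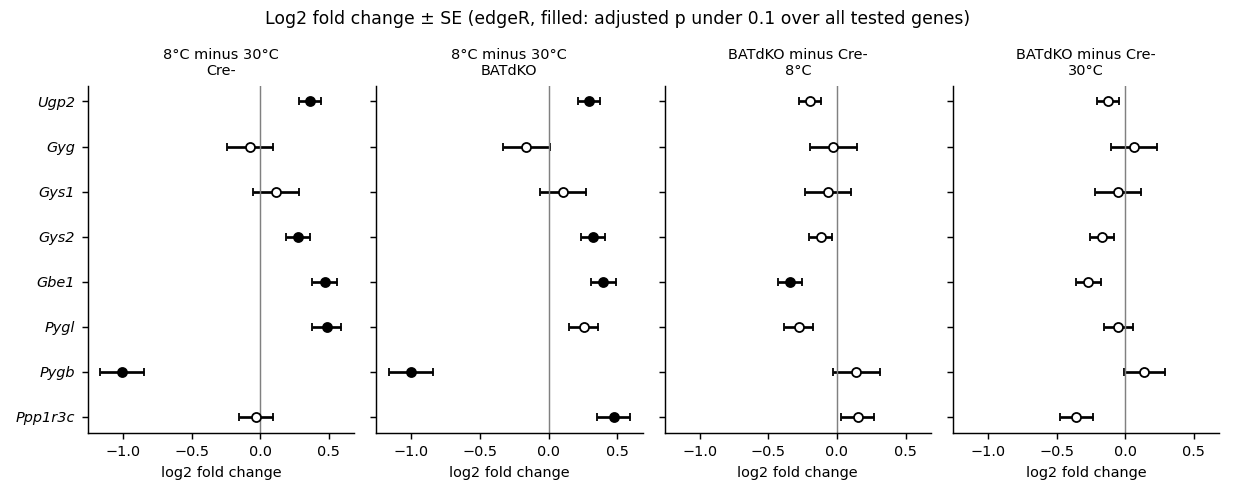
Log2 fold change ± SE (horizontal axis, edgeR fit to 24 libraries) of the 8 genes for cold in each genotype and for genotype at each temperature. Filled points passed the adjusted threshold of 0.1, which holds for 5 genes in each cold comparison, for Gbe1 (-0.34) between genotypes at 8°C and for no gene at 30°C.

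Among the synthesis genes, Ugp2 (chr11:21321138-21371201, minus strand, GRCm38) supplies the UDP-glucose that glycogen synthase uses. Its lowest, median and highest levels were 65.1, 69.8 and 87.5 CPM in Cre- mice at 30°C and 73.9, 90.9 and 104 CPM at 8°C. In BATdKO mice they were 58.0, 64.7 and 69.8 CPM at 30°C and 71.7, 79.9 and 82.3 CPM at 8°C. The temperatures overlapped in Cre- mice only through the shallow 30°C library m4, which held the 87.5 CPM and a count of 64, and did not overlap in BATdKO mice. Separate ranges were not counted over all tested genes, so those given here and below for single genes cannot be weighed. Ugp2 rose 1.29-fold with cold in Cre- mice (log2 fold change 0.37 ± 0.08 SE, adjusted p = 0.00418) and 1.23-fold in BATdKO mice (0.29 ± 0.08, adjusted p = 0.0289). With the summed hepatocyte markers as a covariate in edgeR the values were 0.37 (adjusted p = 0.0036) in Cre- and 0.30 (adjusted p = 0.0522) in BATdKO mice. An exon of Gm12043 overlaps Ugp2 on the other strand, at a distance of 49262 bases from the annotated 3′ end of Ugp2, where its tags are made. The overlap lies 3684 bases from the annotated 3′ end of Gm12043. Whether reads were counted by strand is not stated, and the part of Gm12043 reads in the Ugp2 count was not tested.

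Gbe1 (chr16:70313949-70569716, plus strand) adds the branches that give glycogen its compact, soluble form. Its lowest, median and highest levels were 74.7, 104 and 129.9 CPM in Cre- mice at 30°C and 125, 137 and 159.8 CPM at 8°C. In BATdKO mice they were 75.7, 85.1 and 89.4 CPM at 30°C and 99.3, 110.4 and 120.0 CPM at 8°C. All 6 BATdKO mice at 8°C lay above all 6 at 30°C, and 4 of 6 Cre- mice at 8°C lay above all Cre- mice at 30°C, the highest of which was again the shallow m4. Gbe1 rose 1.39-fold with cold in Cre- mice (0.47 ± 0.09, adjusted p = 0.00134) and 1.32-fold in BATdKO mice (0.40 ± 0.09, adjusted p = 0.00866). Both calls held when each of the 24 mice was left out in turn.

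Gys2 (chr6:142422613-142473109, minus strand), the synthase isozyme of liver, was counted at a low level with little spread. Its lowest, median and highest levels were 19.7, 21.0 and 24.6 CPM in Cre- mice at 30°C and 23.2, 26.2 and 27.6 CPM at 8°C. In BATdKO mice they were 14.1, 19.9 and 21.0 CPM at 30°C and 22.7, 24.0 and 24.6 CPM at 8°C. The temperatures did not overlap in BATdKO mice and overlapped in Cre- mice by 1 cold mouse. Gys2 rose 1.25-fold with cold in BATdKO mice (0.33 ± 0.09, adjusted p = 0.0281) and 1.21-fold in Cre- mice (0.28 ± 0.09, adjusted p = 0.0551). With the summed hepatocyte markers as a covariate the value in BATdKO mice was 0.28 and no longer passed (adjusted p = 0.115), while that in Cre- mice did (0.28, adjusted p = 0.0409). The call in Cre- mice was lost without any 1 of 6 mice, with adjusted p = 0.135, 0.125 and 0.102 without the 30°C mice m1, m2 and m3 and 0.119, 0.117 and 0.115 without the 8°C mice m1, m4 and m6.

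Gys1 and Gyg showed no change with cold that passed the test. Gys1 (chr7:45434844-45456619, plus strand), the synthase of muscle and most other tissues, ranged from 13.7 to 53.7 CPM over the 24 libraries, and its log2 fold change with cold was 0.12 ± 0.17 in Cre- and 0.10 ± 0.17 in BATdKO mice. Gyg (chr3:20122084-20155317, minus strand), the primer on which each glycogen molecule is built, ranged from 10.9 to 29.1 CPM, with values of -0.07 ± 0.17 and -0.16 ± 0.17. The 4 groups overlapped for both genes. Exons of Ruvbl2 overlap those of Gys1 on the other strand near the start of Gys1, 20068 bases from its annotated 3′ end and 13121 bases from that of Ruvbl2, and the part of Ruvbl2 reads in the Gys1 count was not tested.

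Within groups, Gys1 and Gyg varied together (Pearson r = 0.81 of log2 CPM with group means taken out, 24 libraries), the highest r among the 28 pairs of the 8 genes. Both were lower where the summed hepatocyte markers were higher, with r = -0.71 for Gys1, -0.70 for Gyg and -0.59 for Pygb on the same scale, against 0.34 for Gys2, 0.33 for Ppp1r3c, 0.15 for Gbe1, 0.04 for Ugp2 and -0.06 for Pygl. With the summed muscle markers r was 0.45 for Gys1, 0.45 for Gyg, 0.40 for Pygb, 0.29 for Pygl and 0.23 for Ppp1r3c, against -0.07 for Ugp2, -0.12 for Gys2 and -0.45 for Gbe1. With the summed brown adipocyte markers it ran from -0.48 for Pygl and -0.14 for Ppp1r3c, through 0.12 for Pygb, 0.16 for Ugp2, 0.16 for Gys2, 0.25 for Gbe1 and 0.28 for Gyg, to 0.45 for Gys1. These points share a library, its depth and its tissue piece, and the part of these markers in the levels was not tested. The shallow Cre- 30°C library m4 had counts of 10, 8 and 7 for Gys1, Gyg and Pygb, with the lowest CPM of its group for each. It also had the highest hepatocyte sum of its group, 46867 CPM, and how far these r values rest on it was not tested.

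The 2 breakdown isozymes moved apart with cold. Pygl (chr12:70190811-70231488, minus strand) is the phosphorylase that releases glucose in liver. Its lowest, median and highest levels were 277, 337 and 354 CPM in Cre- mice at 30°C and 432, 466 and 488 CPM at 8°C. In BATdKO mice they were 257, 285 and 446 CPM at 30°C and 344, 381 and 428 CPM at 8°C. All 6 cold Cre- mice lay above all 6 warm ones, whereas the BATdKO temperatures overlapped through the warm mice m5 and m6, at 376 and 446 CPM. Pygl rose 1.399-fold with cold in Cre- mice (0.48 ± 0.11, adjusted p = 0.0045). The value in BATdKO mice was 0.26 ± 0.11 and did not pass (adjusted p = 0.189), but it was 0.37 without the 30°C mouse m6 (adjusted p = 0.0145) and 0.37 without both mice m6 (adjusted p = 0.00885). The difference between the genotypes' cold responses did not pass (interaction -0.23 ± 0.15, adjusted p = 0.727).

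Pygb (chr2:150786735-150831758, plus strand), the phosphorylase named for brain and present in many tissues, had the largest change with cold of the 8 genes in both genotypes. In Cre- mice its level at 30°C had a lowest, median and highest value of 9.57, 16.4 and 24.7 CPM, against 7.46, 8.55 and 10.1 CPM at 8°C. In BATdKO mice they were 15.0, 19.0 and 27.8 CPM at 30°C and 7.43, 9.27 and 11.9 CPM at 8°C. The temperatures did not overlap in BATdKO mice, and in Cre- mice 4 of 6 cold mice lay below all warm ones, the lowest of which was the shallow m4 with a count of 7. Pygb fell 2.01-fold with cold in Cre- mice (-1.01 ± 0.16, adjusted p = 0.00014) and 2.01-fold in BATdKO mice (-1.004 ± 0.16, adjusted p = 0.000246). Leaving out each mouse in turn gave -1.07 to -0.86 in Cre- and -1.08 to -0.88 in BATdKO mice, with both calls kept. With the hepatocyte markers as a covariate the values were -0.997 in Cre- and -0.78 in BATdKO mice, both past the threshold (adjusted p = 2.09e-05 and 0.00217).

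The ratio of Pygl to Pygb within a library does not depend on library size. It is made of the same counts as the tests of Pygl and Pygb above and is no separate support for them. In Cre- mice the lowest, median and highest ratios were 13.2, 19.3 and 31.4 at 30°C and 47.2, 51.5 and 58.1 at 8°C. In BATdKO mice they were 13.9, 16.5 and 19.4 at 30°C and 31.4, 40.1 and 50.9 at 8°C. The warm and cold mice did not overlap in either genotype. The ratio was 2.57-fold higher at 8°C in Cre- mice (two-sided exact permutation p = 0.00216, which is the lowest possible with 6 mice a group, adjusted p = 0.00866 over 8 ratio tests) and 2.45-fold higher in BATdKO mice (exact permutation test, same p and adjusted p). At 8°C the ratio was 1.31-fold lower in BATdKO than in Cre- mice (exact permutation p = 0.00866, adjusted p = 0.0231), with overlapping ranges. This adjustment covers 8 tests only. Neither gene alone passed there in edgeR over all tested genes (adjusted p = 0.293 for Pygl and 0.896 for Pygb). At 30°C the genotypes differed by -0.32 on the log2 scale, which did not pass (exact permutation p = 0.123, adjusted p = 0.247).

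The ratio of Gys2 to Gys1 passed in none of the 4 comparisons (exact permutation tests, adjusted p from 0.329 to 0.881). Its medians were 0.59 in Cre- and 0.52 in BATdKO mice at 30°C and 0.69 in Cre- and 0.59 in BATdKO mice at 8°C. The ranges of all groups overlapped. The shallow Cre- 30°C library m4 had the highest ratio, 1.76, from a Gys1 count of 10 and a Gys2 count of 18.

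**Figure D4:**
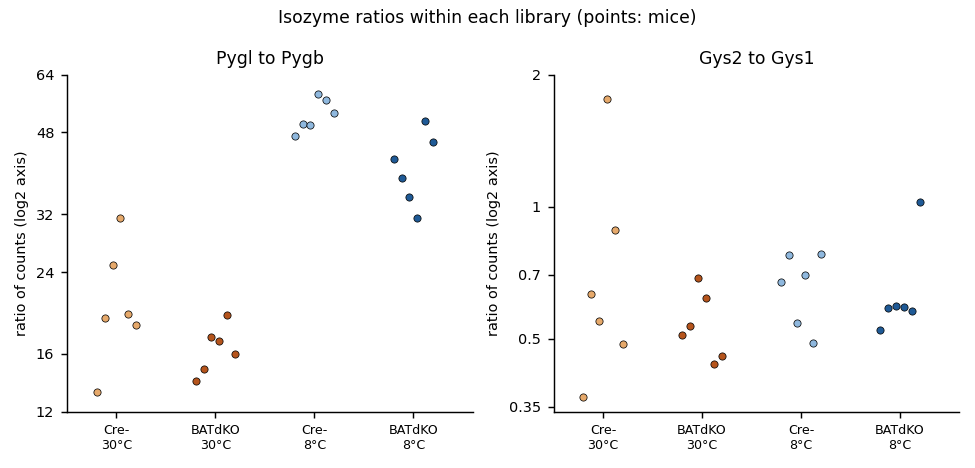
Ratio of Pygl to Pygb counts and of Gys2 to Gys1 counts within each library (vertical axes, log2) by group. The ratio of Pygl to Pygb is 13.2 to 31.4 in warm Cre- mice and 47.2 to 58.1 in cold ones, while the ratio of Gys2 to Gys1 overlaps in all groups.

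The regulator Ppp1r3c (chr19:36731731-36736653, minus strand) rose with cold in BATdKO mice. Cre- mice had lowest, median and highest levels of 31.3, 42.9 and 53.3 CPM at 30°C and 37.8, 40.6 and 47.7 CPM at 8°C. In BATdKO mice they were 23.4, 33.2 and 42.9 CPM at 30°C and 36.2, 45.5 and 54.7 CPM at 8°C. The Cre- temperatures overlapped throughout, and 4 of 6 cold BATdKO mice lay above all warm ones. Ppp1r3c rose 1.39-fold in BATdKO mice (0.48 ± 0.12, adjusted p = 0.0209), and the value in Cre- mice was -0.03 ± 0.12 (adjusted p = 0.944). The difference between these responses was 0.51 ± 0.17 with an unadjusted p of 0.00658 in edgeR, and it did not pass after adjustment over all tested genes (adjusted p = 0.423), so that the genotypes are not shown to differ. Without both mice m6 at 30°C the cold value in BATdKO mice was 0.39 (adjusted p = 0.0252) and the interaction 0.50 (adjusted p = 0.186). With the hepatocyte markers as a covariate in edgeR these were 0.41 (adjusted p = 0.0861) and 0.44 (adjusted p = 0.832).

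The promoters of the 4 genes with the largest changes or differences between groups are shown with 4 motifs that were searched on both strands in the 250 bases before each RefSeq start, as a description. These were the E-box CACGTG, the cAMP response element TGACGTCA, its short form TGACG, which the full element contains, and the nuclear receptor half-site AGGTCA. Of 32851 promoter windows of this length, 6.02% held the E-box, 1.55% the full element, 17.8% the short form and 14.0% the half-site. Windows were found for 7 of the 8 genes, from RefSeq on GRCm38.p6, and are printed 5′ to 3′ on the gene's strand up to the first annotated untranslated base, with motif matches in capitals.
Pygl (chr12:70227684-70227933, minus strand): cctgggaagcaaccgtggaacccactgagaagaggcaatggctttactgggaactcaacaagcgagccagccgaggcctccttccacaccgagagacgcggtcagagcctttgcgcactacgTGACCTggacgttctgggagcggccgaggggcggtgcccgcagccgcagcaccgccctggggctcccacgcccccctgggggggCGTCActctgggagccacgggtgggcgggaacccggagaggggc
Pygb (chr2:150786546-150786734, plus strand): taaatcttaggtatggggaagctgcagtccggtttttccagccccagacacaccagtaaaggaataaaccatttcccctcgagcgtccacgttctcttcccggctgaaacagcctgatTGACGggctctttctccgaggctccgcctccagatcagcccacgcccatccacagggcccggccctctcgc
Ppp1r3c (chr19:36736654-36736854, minus strand): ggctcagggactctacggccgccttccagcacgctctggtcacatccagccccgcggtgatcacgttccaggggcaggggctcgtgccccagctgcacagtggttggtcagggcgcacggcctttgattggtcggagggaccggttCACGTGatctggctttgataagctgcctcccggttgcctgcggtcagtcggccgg
Gbe1 (chr16:70313699-70313948, plus strand): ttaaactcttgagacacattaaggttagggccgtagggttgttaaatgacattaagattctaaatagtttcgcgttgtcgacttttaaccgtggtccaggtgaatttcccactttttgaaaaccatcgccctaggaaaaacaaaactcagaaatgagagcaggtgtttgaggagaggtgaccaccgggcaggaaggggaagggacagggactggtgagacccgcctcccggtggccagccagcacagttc
Pygl held a half-site that begins 128 bases and a short cAMP element that begins 44 bases before its start, both read on the opposite strand. Pygb, which fell where Pygl rose, held a short cAMP element 132 bases before its start, and Ppp1r3c held an E-box 104 bases before its start. None of the 4 motifs was in the windows of Gbe1, Ugp2, Gyg or Gys1. An exon of the non-coding F730035M05Rik lies in the Pygl window. That window precedes the RefSeq start of Pygl but lies inside the GENCODE span given above, which starts at 70231488.

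Between genotypes at 8°C, 1 of the 8 genes was lower in BATdKO mice and none was higher, against 1.12% lower and 0.697% higher over all tested genes. The gene was Gbe1, for which all 6 BATdKO mice (99.3 to 120.0 CPM) lay below all 6 Cre- mice (125 to 159.8 CPM). Gbe1 was 1.27-fold lower in BATdKO mice (-0.34 ± 0.09, adjusted p = 0.0607). The call was lost without any 1 of 6 mice, with adjusted p = 0.107, 0.159 and 0.145 without the Cre- 8°C mice m1, m3 and m4 and 0.145, 0.144 and 0.132 without the BATdKO 8°C mice m1, m5 and m6, and the log2 values over all 24 omissions ranged from -0.37 to -0.30. Without both mice m6 at 30°C it was -0.35 (adjusted p = 0.0378), and with the muscle markers, which summed to 3.26–1530 CPM in Cre- and 0.978–154 CPM in BATdKO mice at 8°C, as a covariate it was -0.39 (adjusted p = 0.0261). The value with the hepatocyte markers as a covariate was -0.35 (adjusted p = 0.0691).

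Pygl also had separate ranges at 8°C, with 344 to 428 CPM in BATdKO and 432 to 488 CPM in Cre- mice. How many of all tested genes had separate ranges was not counted, so this cannot be weighed for Gbe1 or Pygl. Its value of -0.28 ± 0.11 did not pass in the fit to all 24 libraries (adjusted p = 0.293). It did pass when only the 8°C groups were fitted (-0.28, adjusted p = 0.0188), which leaves the 30°C libraries out. That fit called 477 genes in all, against 227 in the main fit. Pygl also passed without both mice m6 at 30°C (-0.28, adjusted p = 0.0737). Ugp2 and Gys2 had values of -0.20 ± 0.08 (adjusted p = 0.346) and -0.12 ± 0.09 (adjusted p = 0.762), and their ranges overlapped. The median over the 8 genes was -0.09, beside -6.08e-05 over all tested genes. The cold and genotype comparisons share the 8°C libraries and are not independent of each other.

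At 30°C none of the 8 genes passed between genotypes, as none of all tested genes did (0%, with 1303 genes at an unadjusted p under 0.05 in edgeR and 70 genes called by DESeq2). Unadjusted p was under 0.05 for 2 of the 8 genes. Gbe1 was at -0.27 ± 0.09 (adjusted p = 0.266), and each of the 6 BATdKO mice lay below the Cre- median. Ppp1r3c was at -0.36 ± 0.12 (adjusted p = 0.277), and it passed without both mice m6 at 30°C (-0.35, adjusted p = 0.08) and without the Cre- mouse m6 alone (-0.43, adjusted p = 0.0595). The number of genes called at 30°C was 500 without both mice m6. For the interaction of genotype and temperature 0.0961% of all tested genes passed and none of the 8 did, where 1 of the 8, Ppp1r3c, had an unadjusted p under 0.05 in edgeR, as did 1005 of the 12485 tested genes, and DESeq2 likewise called none of the 8 there or between genotypes at 30°C.

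Of 27 other genes of glycogen metabolism, 20 were in the table and all 20 were tested. They comprised 6 breakdown genes (among them the phosphorylase kinase subunit Phka1, the lysosomal glucosidase Gaa and the muscle phosphorylase Pygm), 7 targeting and phosphatase genes, both kinases of glycogen synthase (Gsk3a, Gsk3b) and 5 genes of glucose phosphate conversion and transport. Only Ppp1r3b passed in any of the 5 comparisons, as 1 of 20 genes risen with cold in BATdKO mice where 3.76% of all tested genes rose, so that the count of 1 is near the share over all genes. Ppp1r3b, the targeting subunit known from liver, had lowest, median and highest levels of 123, 166 and 190.2 CPM in BATdKO mice at 30°C and 178, 189 and 238 CPM at 8°C, with overlapping ranges. It rose 1.23-fold (0.29 ± 0.09, adjusted p = 0.0541), and in Cre- mice the value was 0.10 ± 0.09. The medians of the 20 genes were 0.04 and 0.07 for cold in Cre- and BATdKO mice, beside -0.02 and -0.0026 over all tested genes.

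Pygm, the muscle phosphorylase, did not pass in any comparison in spite of the largest values on the list. Its level ranged from 0 to 382 CPM over the 24 libraries, and its log2 value was -2.28 ± 0.86 for cold in Cre- mice (adjusted p = 0.124) and -3.04 ± 0.90 between genotypes at 30°C (adjusted p = 0.194). The summed skeletal muscle markers covered 2.99 to 8432 CPM in Cre- and 17.3 to 641 CPM in BATdKO mice at 30°C. Their part in the level of Pygm was not tested.

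**Figure D5:**
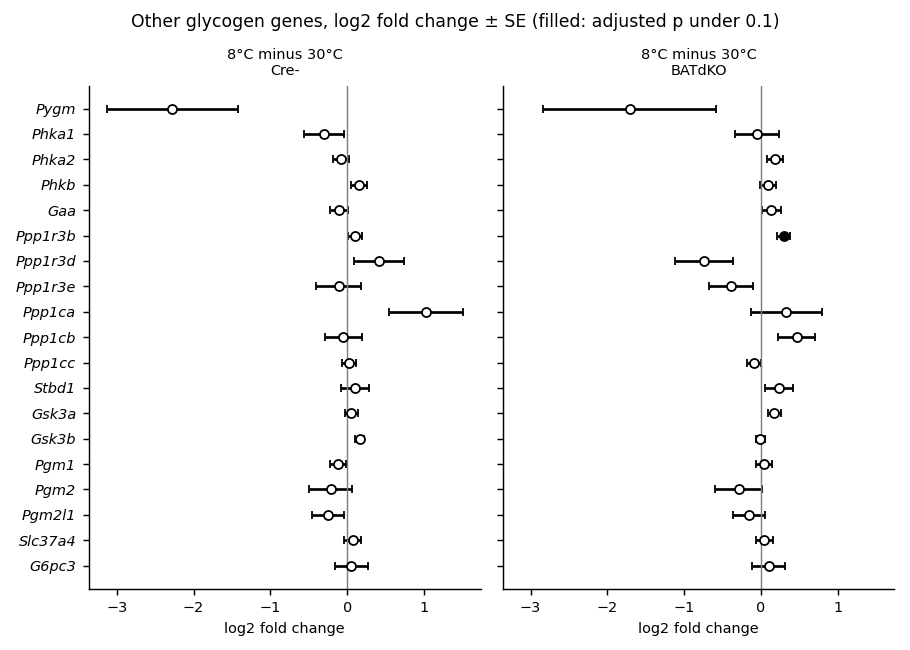
Log2 fold change ± SE with cold (horizontal axis, edgeR) of 19 of the 20 other glycogen genes in Cre- and BATdKO mice, with 1 gene not shown. The filled point, Ppp1r3b in BATdKO mice at 0.29, passed the adjusted threshold of 0.1, and Pygm has the lowest values, at -2.28 and -1.71.

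For each of the 8 genes the 2 genes with the most similar pattern were taken by Pearson r of log2 CPM over the 24 libraries, which carry the 4 group means and share depth and tissue make-up. For Gbe1 they were Aacs, an enzyme that activates ketone bodies for lipid synthesis (r = 0.93), and Bmp8b, a secreted factor of brown fat (r = 0.90). Pygl was followed by the mitochondrial carrier Slc25a48 (0.89) and Hsd17b12 (0.88), Ugp2 by Dhrs7 (0.87) and Mut (0.87), and Gys2 by the cholesterol synthesis gene Hmgcs1 (0.87). Gys1 was followed by Nol3 (0.87) and Aars2 (0.85), Pygb by the non-coding Snhg11 (0.89) and Ssh2 (0.87), Gyg by Ehbp1l1 (0.81) and Csnk1a1 (0.75), and Ppp1r3c by Reln (0.79) and Hyou1 (0.77). With group means taken out, the same gene stayed among the nearest pair for Pygl (Slc25a48, 0.92), Gys1 (Nol3, 0.89) and Gyg (Ehbp1l1, 0.81), and other genes took both places for the other 5 genes.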

How the data were processed

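BAT RNA of 24 mice was measured with a 3′ tag kit. Only forward reads were used by the authors, with BBDuk for trimming, STAR 2.5.3a for alignment to GRCm38 and Rsubread for summing. The values the authors deposited are raw, unnormalised counts for each gene. The annotation release, counting by strand and the filter that left 12615 genes are not given in the sources used here. The study removed outliers that it does not name, so all 24 libraries were used. Symbols were matched for 12608 genes.

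The 8 genes and all gene lists were chosen with earlier results of these data known. Mice are called m1 to m6 in accession order, which pairs no mice. The labels name each mouse, and replicates are taken as animals on that ground. Xist and Ddx3y were counted together in 24 of 24 libraries. Whether each library holds RNA of the named mouse only was not tested.

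The tests ran in edgeR 4.0.16 (limma 3.58.1) under R 4.3.3. Libraries were normalised by TMM, filterByExpr removed 130 genes and kept 12485, and a quasi-likelihood model with 4 group means was fitted to all 24 libraries. P-values were adjusted by Benjamini-Hochberg over all tested genes, with the study's threshold of 0.1. Each standard error is the fold change over the square root of F. CPM use normalised library sizes, and correlations use log2 CPM with a prior count of 2. Isozyme ratios, with 0.5 counts added to each gene, were compared by exact two-sided permutation tests of the mean log2 ratio, adjusted over 8 tests. The edgeR step was tested on simulated data.

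The text names the 8 genes, other glycogen genes past the threshold, and the 2 genes most like each. Values of some genes under these rules are not reported here. Pygm and the marker genes Alb, Ucp1, Cidea, Adrb3, Dio2, Xist and Ddx3y were named after their values were seen. Separate values of the 2 deleted genes were also added after they were seen. Alternatives were DESeq2 1.42.0, RLE normalization, no filter, a mean count of at least 10, robust dispersion, only the groups compared, and leaving out each mouse. Leaving out both mice m6 at 30°C, and marker sums as a covariate, were added after the data had been seen. Positions and overlaps are from GENCODE vM21 on GRCm38. Depth was lowest in Cre- 30°C m4, where counts of the 8 genes were 7 to 235.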

Additional observations from a re-analysis of the deposited data

Results flagged for a closer look

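Of 40 groups of 6 values examined (8 genes and 2 ratios in 4 groups), 5 held a mouse far from the other 5 by Dixon's test, which chance alone gives in about 1 in 20 groups. In Cre- mice at 30°C, m4 had 87.5 CPM of Ugp2 where the nearest mouse had 70.4 CPM, and a Gys2 to Gys1 ratio of 1.76 where the nearest had 0.885. This library held 699703 counts. In BATdKO mice at 8°C, m6 had 24.1 CPM of Gys1 where the nearest mouse had 39.1 CPM, and a Gys2 to Gys1 ratio of 1.02 where the nearest had 0.594. In BATdKO mice at 30°C, m6 had 27.8 CPM of Pygb where the nearest mouse had 19.7 CPM, and this mouse also went against its group in the summed level of the deleted genes.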

How the results depend on the processing

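No paired analysis was possible because the mouse numbers were given in accession order and pair no mice between groups. All calls of the 8 genes were the same with DESeq2, RLE normalization, no filter, a mean count of at least 10 and robust dispersion.

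The number of genes called between genotypes at 30°C was 0, but 70 with DESeq2, 500 without both mice m6 at 30°C, 5 with the muscle covariate and 0 to 369 when each mouse was left out (369 without Cre- 30°C m6). The interaction count of 12 became 48 with DESeq2, 21 with robust dispersion, 44 without both mice m6, 19 with the muscle covariate and 7 to 37 on leaving out 1 mouse. The genotype count at 8°C, 227, became 477 with only the groups compared, 150 with the muscle covariate and 138 to 276 on leaving out 1 mouse. Leaving out 1 mouse gave 791 to 1343 genes for cold in Cre- and 574 to 1069 in BATdKO mice. The cause of these shifts was not tested.

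No value that changed sign was a called one. The Pygb interaction was -0.0025 with DESeq2 and -0.0040 with no filter. Without both mice m6 the values at 30°C were 0.021 for Gys1 and -0.048 for Pygb between genotypes, and the Gys2 interaction was -0.017. With the hepatocyte covariate Gyg was at 0.082 for cold in BATdKO mice, 0.14 and -0.039 between genotypes at 8°C and 30°C and 0.18 for the interaction, Gys1 was at 0.10 between genotypes at 8°C and 0.23 for the interaction, and the Gys2 interaction was -0.0025. With the muscle covariate Gyg and Gys1 were at 0.080 and 0.018 between genotypes at 8°C, and the Gys1 interaction was 0.065.

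Leaving out 1 mouse gave Gyg -0.18 to 0.055 for cold in Cre- mice, -0.12 to 0.066 and -0.041 to 0.20 between genotypes at 8°C and 30°C and -0.23 to 0.012 for the interaction. For Gys1 it gave -0.12 to 0.038, -0.13 to 0.10 and -0.17 to 0.081 in the last 3. Interactions were -0.026 to 0.079 for Gys2 and -0.15 to 0.13 for Pygb, Ppp1r3c was -0.11 to 0.0068 for cold in Cre- mice, and Pygl was -0.17 to 0.011 between genotypes at 30°C. The log2 ratio of Gys2 to Gys1 was -0.23 to 0.22 for cold in Cre- mice and -0.18 to 0.013 between genotypes at 8°C. That of Pygl to Pygb between genotypes at 30°C was -0.44 to -0.19 and passed only without Cre- 30°C m1 (-0.44, exact permutation adjusted p = 0.0173). Counts of 7 to 19 for Pygb in the shallowest libraries limit its precision.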
